A study of Mus musculus with 6 samples.

Results

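The Alx, Prrx, Msx and Dlx homeobox genes were followed in the anterior nasal septum cartilage of mouse embryos, the midline cartilage that supports the growing snout. The members are 8 genes given by name (Alx1, Alx4, Prrx1, Prrx2, Msx1, Msx2, Dlx5 and Dlx6), found by symbol among the 38924 genes of the count files. RNA-seq was available for 3 Apert and 3 wild-type (WT) embryos at embryonic day 14.5, with 1 library per mouse. Apert embryos carry the genotype Fgfr2+/S252W; EIIA-Cre, a heterozygous missense change of a fibroblast growth factor receptor that models Apert syndrome, together with a Cre transgene active from the early embryo and therefore throughout the body. The WT label names neither the mutant allele nor the Cre transgene, and the strain is given as C57BL/6 for both genotypes. Cartilage was cut from frozen sections by laser capture, and 15 ng of RNA per library was amplified before sequencing. Captured tissue is a mixture, so fewer cells of a type and less RNA per cell cannot be told apart in any value below.

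Homeobox genes encode transcription factors that bind DNA through a homeodomain, a fold of 60 residues whose last helix lies in the major groove. Alx1 and Alx4 mark the mesenchyme of the frontonasal region, which derives from neural crest, and loss of the human genes ALX1 and ALX4 causes frontonasal dysplasia. Prrx1 and Prrx2 act in undifferentiated mesenchyme and perichondrium, the fibrous sheath of cartilage, and mice that lack Prrx1 have defects of the skull, jaw and limbs. Msx1 and Msx2 are induced by bone morphogenetic proteins (BMPs) and keep progenitors undifferentiated, and a gain-of-function MSX2 mutation in people closes cranial sutures early. Dlx5 and Dlx6, neighbours on one chromosome, give lower-jaw identity to the first pharyngeal arch and also act in osteoblasts and in the olfactory and ear placodes.

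The homeobox itself, a stretch of 180 bases, is shown for the Alx and Prrx pairs, which carried most of the reads, because it is where paralogs are most alike and where reads could be assigned to the wrong gene. The sequences are coding sequence of GENCODE M21 transcripts (GRCm38, the build mm10 that the count files use), 5′ to 3′ on the gene's strand. Capitals mark the 18 bases, 6 codons, of the recognition helix that encode tryptophan, phenylalanine, glutamine, asparagine and a pair of basic residues.
Alx1: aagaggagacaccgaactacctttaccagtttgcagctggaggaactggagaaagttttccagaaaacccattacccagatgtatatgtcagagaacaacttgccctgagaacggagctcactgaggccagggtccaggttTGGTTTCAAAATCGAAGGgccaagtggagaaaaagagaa
Alx4: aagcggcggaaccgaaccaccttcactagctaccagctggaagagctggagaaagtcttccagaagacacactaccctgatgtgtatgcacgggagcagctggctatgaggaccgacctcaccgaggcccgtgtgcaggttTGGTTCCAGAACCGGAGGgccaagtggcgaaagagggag
Prrx1: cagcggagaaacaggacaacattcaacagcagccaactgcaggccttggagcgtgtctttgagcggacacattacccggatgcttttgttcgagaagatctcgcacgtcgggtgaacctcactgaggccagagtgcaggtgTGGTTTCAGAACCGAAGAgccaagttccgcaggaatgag
Prrx2: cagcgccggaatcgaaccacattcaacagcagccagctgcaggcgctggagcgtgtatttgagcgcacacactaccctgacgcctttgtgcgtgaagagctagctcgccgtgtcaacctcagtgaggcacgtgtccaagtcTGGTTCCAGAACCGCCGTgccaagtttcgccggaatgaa

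These homeoboxes span chr10:103022264-103025272 (Alx1, minus strand), chr2:93668528-93675337 (Alx4, plus), chr1:163257901-163261977 (Prrx1, minus) and chr2:30878454-30879533 (Prrx2, plus), each split over 2 coding exons. Prrx1 and Prrx2 were identical at 142 of 180 bases (78.9%), Alx1 and Alx4 at 138 (76.7%), and Dlx5 and Dlx6 at 132 (73.3%). Between the families the Alx and Prrx homeoboxes shared 60.6% to 69.4% of bases. In these pairs the longest exact run shared by the transcripts was 19 bases for Alx, 19 for Prrx and 18 for Dlx. The longest between any members was 47 bases (Prrx1 and Msx2), against reads of 100 bases. Only Dlx6 shared exon sequence with another annotated gene, 104 of its 2375 exon bases with Dlx6os2 on the opposite strand. The span of Alx4 overlapped that of Ext2 with no exon base in common. The same held for Prrx1 with Gm20471 (opposite strand, 114 to 185 counts per library) and Gm26523 (same strand, 132 to 290 counts).

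Alx1 was the most abundant member per annotated exon length, followed by Prrx1 and Alx4, and the other 5 members were low. On the TPM scale (counts divided by exon length and brought to a common total) Alx1 averaged 139.9 ± 44.5 TPM in Apert and 118 ± 19.7 TPM in WT cartilage. Prrx1 averaged 55.8 ± 11.8 TPM in Apert and 43.1 ± 3.68 TPM in WT, and Alx4 19.1 ± 1.98 TPM in Apert and 20.7 ± 1.98 TPM in WT (SD, n = 3 each). The mean of Alx1 was above 98.2% of the 13333 genes tested in Apert and 97.3% in WT, that of Prrx1 above 92.6% in Apert and 88.6% in WT, and that of Alx4 above 73.6% in Apert and 73.9% in WT. Alx1, Prrx1 and Alx4 were separated from each other and from the rest in both genotypes, since the ranges of neighbours in the order did not overlap. Msx1 followed at 3.62 ± 0.738 TPM in Apert and 2.36 ± 0.545 TPM in WT, and Prrx2 at 3.53 ± 1.47 TPM in Apert and 2.49 ± 1.16 TPM in WT. Dlx5 averaged 1.14 ± 1.52 TPM in Apert and 1.37 ± 1.02 TPM in WT, and Msx2 0.392 ± 0.187 TPM in Apert and 0.379 ± 0.266 TPM in WT (SD, n = 3 each). The ranges of Msx1, Prrx2, Dlx5 and Msx2 overlapped from one to the next in both genotypes, so neighbours among them are not resolved, although Msx1 and Prrx2 both lay above Msx2 without overlap. Dlx6 was last with 0 TPM in each Apert library and at most 0.159 TPM in WT. Exon length is that of all annotated exons of a gene together, so that a gene with long or alternative exons is understated. It was 11069 bases for Prrx1 and 2814 bases for Alx1. In CPM, which takes no account of length, Prrx1 exceeded Alx1 in every library, so the order of these genes rests on the lengths used.

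**Figure D1:**
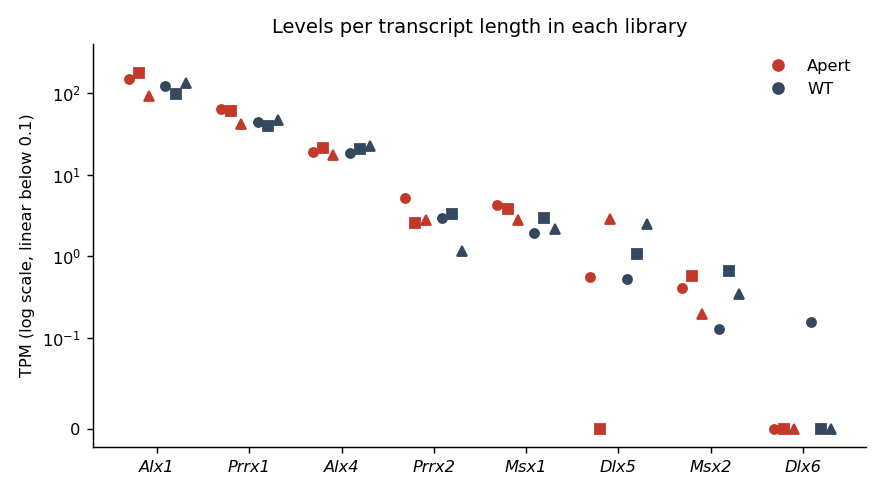
Level of each homeobox gene per annotated exon length in the 3 Apert (red) and 3 WT (dark) libraries. The scale is TPM, logarithmic and linear below 0.1, with circles, squares and triangles for replicates 1, 2 and 3. Alx1, Prrx1 and Alx4 form 3 separate steps in both genotypes, while Prrx2, Msx1, Dlx5 and Msx2 overlap their neighbours and Dlx6 is at 0 in all libraries but 1.

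The comparison between genotypes asks whether these factors differ in the mutant cartilage. Counts were tested with edgeR's quasi-likelihood test over all 13333 genes that passed a low-count filter, with Benjamini-Hochberg adjustment at 0.05. All 5 members tested had positive log2 fold changes, as did 51.1% of the genes tested. Among the 8 members 5 passed the filter (Alx1, Alx4, Prrx1, Prrx2 and Msx1) and none was called, in a fit that called 0.450% of the genes tested, 0.398% as higher and 0.0525% as lower in Apert. That split was 53 genes higher and 7 lower, and with scaling to library totals it was 17 higher and 24 lower. An unadjusted p below 0.05 was found for Alx1 and Prrx1 and for 11.4% of the genes tested. Levels below are CPM, counts relative to the library total adjusted by edgeR's TMM factor. Library totals were 6760510 to 10527915 counts in Apert and 8631181 to 10834744 in WT, so that 1 count was 0.0992 to 0.162 CPM in Apert and 0.0867 to 0.108 CPM in WT. Mitochondrial genes took 34.3% to 40.4% of counts in Apert and 28.8% to 30.2% in WT, and the part of this difference in the results was not tested beyond the fit without those genes given below. Fgfr2 itself averaged 519 ± 59.1 CPM in Apert and 630.1 ± 61.8 CPM in WT (SD, n = 3 each; log2 fold change -0.28, adjusted p = 0.461), and a point mutation leaves its counts uninformative about the labels.

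**Figure D2:**
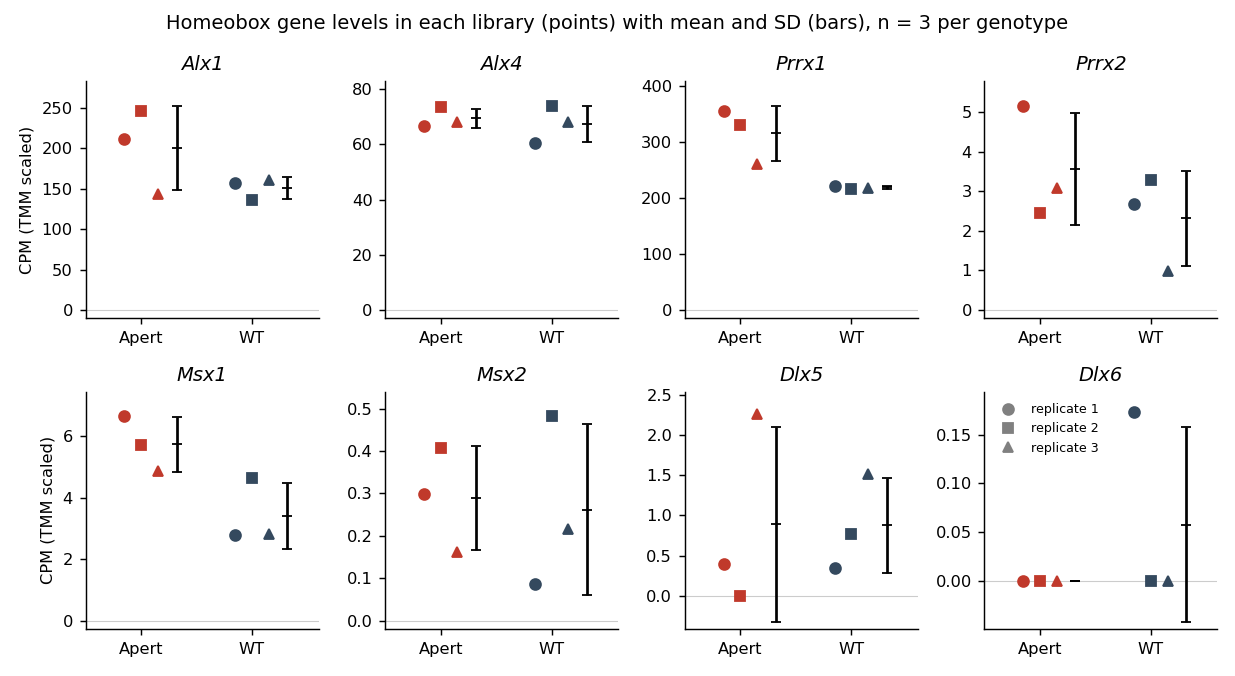
CPM of each homeobox gene in the Apert (left, red) and WT (right, dark) libraries, one panel per gene with its own linear axis; bars are mean and SD (n = 3 each). In Prrx1 and Msx1 all Apert points lie above all WT points, which 8.93% of the genes tested also showed. In the other 6 panels the genotypes overlap, and on the TPM scale they overlap for all 8 genes.

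In CPM, Prrx1 was higher in every Apert library than in any WT library, as were 8.93% of the genes tested. It did not pass the test, and on the TPM scale its genotypes overlapped. Its levels were 355, 331 and 260.4 CPM in Apert replicates 1 to 3, against 222, 217 and 218 CPM in WT replicates 1 to 3. The WT libraries lay close together, with a coefficient of variation of 1.15% where counting error alone gives 2.10%, and the Apert libraries were spread over 15.7%. The fitted fold of Apert over WT was 1.44, with a 95% interval of 1.17 to 1.77 (log2 fold change 0.53, standard error 0.14, unadjusted p = 0.00154, adjusted p = 0.120). Omitting single libraries gave log2 fold changes of at least 0.40 (Apert replicate 1 omitted) and at most 0.64 (Apert replicate 3 omitted), at adjusted p of 0.122 to 0.395. DESeq2 called Prrx1 (log2 fold change 0.52, adjusted p = 0.0278), in a fit that called 223 genes, 161 of them higher in Apert. The main fit called 60 genes. DESeq2 was the only one of 17 alternatives that called Prrx1, with adjusted p over all of them from 0.0278 to 0.491.

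Prrx2 was measured from few reads. Its levels were 5.16, 2.45 and 3.08 CPM in Apert replicates 1 to 3, from 52, 18 and 19 counts, against 2.69, 3.28 and 0.974 CPM in WT replicates 1 to 3, from 31, 34 and 9 counts. Apert replicate 1 was highest and WT replicate 3 lowest, and the other 4 libraries were intermixed. The log2 fold change was 0.63 with a 95% interval of -0.52 to 1.77 (adjusted p = 0.714), a range of 0.699-fold to 3.40-fold. It was 0.21 without Apert replicate 1, 0.27 without WT replicate 3 and 0.95 without WT replicate 2. Prrx1 exceeded Prrx2 by 12.2-fold to 24.0-fold per length in the Apert libraries and by 11.8-fold to 39.7-fold in the WT libraries.

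The region before the start of Prrx1 is shown with that of Msx1, to give the sequence context of these genes. Msx1 was the other member whose genotypes did not overlap in CPM. RefSeq promoter sequences of GRCm38.p6 were matched for 4 of the 8 members, and the bases printed are those outside the gene limits of the count files. Capitals mark TAATTA, a palindromic site that many homeodomains bind, and CCAAT, the site of the factor NF-Y, on either strand.
Prrx1: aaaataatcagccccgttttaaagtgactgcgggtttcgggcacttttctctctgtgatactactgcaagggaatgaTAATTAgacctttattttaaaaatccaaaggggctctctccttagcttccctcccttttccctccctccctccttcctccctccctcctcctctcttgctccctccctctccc
Msx1: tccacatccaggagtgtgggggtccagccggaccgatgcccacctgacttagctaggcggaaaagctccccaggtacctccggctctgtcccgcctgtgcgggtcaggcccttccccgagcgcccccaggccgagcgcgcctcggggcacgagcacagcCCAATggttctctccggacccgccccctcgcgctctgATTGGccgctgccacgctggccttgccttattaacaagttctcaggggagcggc

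These are 190 bases at chr1:163313711-163313900 and 250 bases at chr5:37824586-37824835, both read on the minus strand. Within the 250 bases before the RefSeq start, Prrx1 had 1 TAATTA, which 4.84% of 32851 promoters of that length held, and no CCAAT. Msx1 had no TAATTA and 2 CCAAT on opposite strands, and 33.8% of promoters held at least 1 CCAAT. Of the other matched members, Msx2 had 1 TAATTA and 1 CCAAT, and Prrx2 had neither. A palindrome of 2 TAAT sites with 3 bases between them occurred in neither and in 0.463% of promoters. The Prrx1 window had 47.6% G and C and 4 CG dinucleotides, against 68.0% and 20 in the Msx1 window. A match is a description of these letters and no evidence of binding.

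Alx1 averaged higher in Apert cartilage, but its genotypes overlapped. Its levels were 212, 246 and 143 CPM in Apert replicates 1 to 3, against 157, 136 and 161 CPM in WT replicates 1 to 3. Apert replicate 3 lay below WT replicates 1 and 3, and Apert replicates 1 and 2 above all WT libraries. The fold was 1.33 with a 95% interval of 1.03 to 1.70 (log2 fold change 0.41, standard error 0.17, unadjusted p = 0.0300, adjusted p = 0.382). It was 0.59 on the log2 scale without Apert replicate 3 and 0.23 without Apert replicate 2, and no alternative called it.

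Alx4 was close to equal in the genotypes. Its levels were 66.8, 73.3 and 68.1 CPM in Apert replicates 1 to 3, against 60.6, 73.7 and 68.0 CPM in WT replicates 1 to 3. The Apert range lay inside the WT range. The fold was 1.03 with a 95% interval of 0.819 to 1.29 (log2 fold change 0.04, adjusted p = 0.953), so differences beyond these bounds are outside the interval and smaller ones in either direction are not. Its sign turned with scaling to library totals (-0.11), and without Apert replicate 2 (-0.010) or WT replicate 1 (-0.030). Alx1 exceeded Alx4 by 5.28-fold to 8.42-fold per length in Apert and by 4.62-fold to 6.49-fold in WT.

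Msx1 was low, and each Apert library was above each WT library in CPM. With library totals alone and on the TPM scale the genotypes overlapped for Msx1. Its levels were 6.65, 5.71 and 4.86 CPM in Apert replicates 1 to 3, from 67, 42 and 30 counts, against 2.77, 4.63 and 2.81 CPM in WT replicates 1 to 3, from 32, 48 and 26 counts. The lowest Apert library, replicate 3, and the highest WT library, replicate 2, stood at 4.86 and 4.63 CPM, close to each other. The fold was 1.69 with a 95% interval of 0.937 to 3.05 (log2 fold change 0.76, standard error 0.40, unadjusted p = 0.0779, adjusted p = 0.504). Omitting single libraries gave values from 0.60 to 1.04 on the log2 scale, lowest without Apert replicate 1 and highest without WT replicate 2.

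Msx2 had 3, 3 and 1 counts in Apert replicates 1 to 3, against 1, 5 and 2 counts in WT replicates 1 to 3. Every library except WT replicate 2 was at or under 3 counts, the limit that a count of 0 would allow, and no fold is given. These totals of 7 counts in Apert and 8 counts in WT cover counting error only, since the libraries carry no molecular identifiers. A genotype difference in Msx2 was not detectable at this depth.

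Dlx5 varied between libraries of the same genotype more than between genotypes. It had 4, 0 and 14 counts in Apert replicates 1 to 3 (0.397, 0 and 2.27 CPM), against 4, 8 and 14 counts in WT replicates 1 to 3 (0.347, 0.771 and 1.51 CPM). Replicate 3 was highest in both genotypes. Dlx6 had 0 counts in all 3 Apert libraries and 2, 0 and 0 counts in WT replicates 1 to 3. A count of 0 allows up to 3 counts, which is 0.298 to 0.486 CPM in the Apert libraries. Neither Dlx5 nor Dlx6 passed the filter, and in an edgeR fit without it the log2 fold change of Dlx5 was -0.04 (standard error 0.96, adjusted p = 0.993). Dlx6os1, a noncoding RNA of the opposite strand whose span overlaps that of Dlx6, had 3, 4 and 3 counts in Apert and 0, 5 and 3 in WT.

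**Figure D3:**
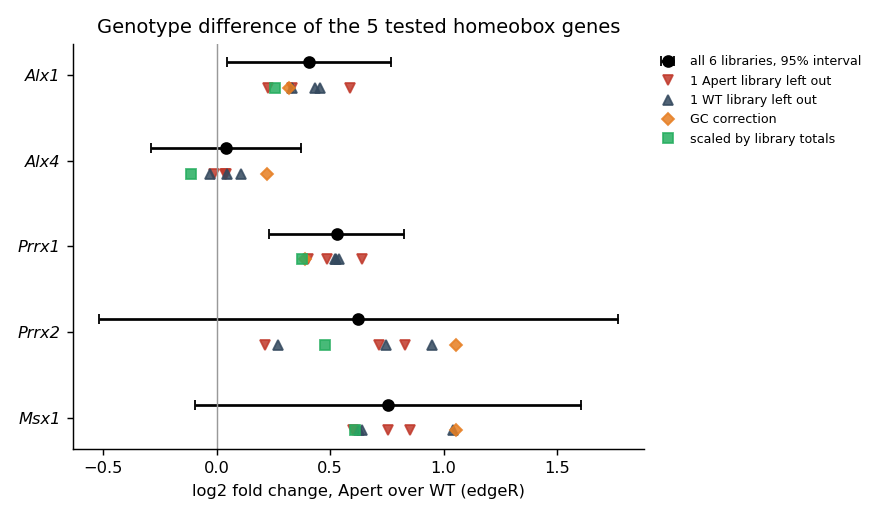
Log2 fold change of Apert over WT for the 5 tested members, with 95% intervals from all 6 libraries (black) and the values with 1 library left out (triangles), after correction for GC content (diamonds) and with scaling by library totals (squares). The interval lies above 0 for Prrx1 (0.23 to 0.83) and Alx1 (0.04 to 0.77) and includes 0 for Alx4, Prrx2 and Msx1, and only Alx4 has values on both sides of 0.

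Of the 8 members, the 3 under the filter overlapped between genotypes in CPM. Among the 5 tested, the CPM of Apert and WT libraries did not overlap, with Apert higher, in 2 (Prrx1 and Msx1), against 8.93% of the genes tested. No member was lower without overlap, against 7.68%. This count depends on the scale. Scaled by library totals alone only Prrx1 remained without overlap (238 to 340.3 CPM in Apert and 224 to 236 CPM in WT; 3.93% of genes tested higher and 14.9% lower). On the TPM scale no member was without overlap (3.20% of genes tested higher and 14.6% lower), because Apert replicate 3 was at 42.2 TPM for Prrx1, under the 46.4 TPM of WT replicate 3, and at 2.82 TPM for Msx1, under the 2.98 TPM of WT replicate 2. Prrx1 and Msx1 stayed without overlap with DESeq2's size factors (8.57% of genes tested higher and 7.98% lower), with upper-quartile scaling (7.84% and 8.98%) and with mitochondrial genes removed before scaling (8.57% and 7.98%), where their log2 fold changes were 0.52 and 0.75. Over all genes tested the log2 fold change had a median of 0.01 with TMM scaling and of -0.15 with library totals, so each fold above is relative to the scaling.

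The members differ in base composition, and correction for it moved their fold changes in different directions. The longest transcript of Prrx1 had 43.6% G and C and that of Alx1 45.5%, while Alx4 had 54.8%, Msx1 58.2% and Prrx2 63.6%. After each library's dependence on GC content was removed, the log2 fold change was 0.39 for Prrx1 (adjusted p = 0.491) and 0.32 for Alx1 (0.728), lower than before, and 0.22 for Alx4 (0.795), 1.06 for Msx1 (0.474) and 1.05 for Prrx2 (0.684), higher than before. None was called, in a corrected fit that called 5 genes in place of 60. The corrected levels of Prrx1, Prrx2, Alx4 and Msx1 did not overlap between genotypes, with Apert higher, where 6.54% of genes tested did the same and 5.95% the opposite. For Alx4 these were 71.2 to 77.1 CPM in Apert and 58.1 to 66.7 CPM in WT, and for Prrx2 2.80 to 5.56 CPM in Apert and 0.980 to 2.42 CPM in WT. The 3 members under the filter were not corrected.

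Within each paralog pair, the proportion of the 2 genes was compared as the log2 ratio of CPM with a pseudocount of 0.5, by two-sided exact permutation over the 6 libraries, for which 0.1 is the smallest possible p. The Msx1 to Msx2 ratio was 3.16, 2.77 and 3.02 in Apert replicates 1 to 3 and 2.48, 2.38 and 2.21 in WT replicates 1 to 3 (difference 0.63, exact permutation p = 0.1, adjusted over 4 pairs 0.4). That ratio rests on the few Msx2 counts and on the pseudocount, and without one the TPM ratios overlapped, from 6.60 to 14.1 in Apert and from 4.53 to 15.1 in WT. The Alx1 to Alx4 ratio averaged 1.49 ± 0.37 in Apert and 1.16 ± 0.25 in WT (exact permutation p = 0.3, adjusted 0.6). Neither the Prrx1 to Prrx2 ratio (6.33 ± 0.44 in Apert and 6.39 ± 0.72 in WT) nor the Dlx5 to Dlx6 ratio (1.10 ± 1.26 in Apert and 1.23 ± 0.85 in WT) had a smaller p than 0.9 (exact permutation, SD, n = 3 each). With these few libraries none of the 4 ratios could pass 0.05.

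Among relatives that are not members, Shox2, which acts in limb and palate mesenchyme, averaged 6.84 ± 1.80 CPM in Apert and 6.74 ± 1.52 CPM in WT (SD, n = 3 each; adjusted p = 0.995). Dlx1, Dlx2, Dlx3, Dlx4 and Msx3 had at most 6 counts in any library.

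Among 25 BMP ligands, receptors, inhibitors and response genes, the signalling that induces Msx genes, 24 were tested and none was called, with 10 positive and 14 negative log2 fold changes and a median of -0.01 (0.01 for all genes tested). Those with the smallest p were Chrdl1, a BMP antagonist, at 32.5 ± 4.31 CPM in Apert and 46.3 ± 3.79 CPM in WT (log2 fold change -0.51, adjusted p = 0.282), and Bmpr2, a receptor, at 285 ± 22.5 CPM in Apert and 221 ± 31.0 CPM in WT (0.36, adjusted p = 0.335; SD, n = 3 each). Of 40 other transcription factors of facial mesenchyme 21 were tested and none was called (median -0.01). Pbx2, a homeodomain cofactor, had the smallest p, at 18.4 ± 2.21 CPM in Apert and 28.9 ± 3.86 CPM in WT (log2 fold change -0.65, adjusted p = 0.219; SD, n = 3 each).

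Osteoblast genes were mostly undetected. Of 12 listed 4 were tested and none was called (median log2 fold change -0.01). Ibsp, Dmp1 and Bglap2 had 0 counts in all 6 libraries, and Alpl, Sp7, Spp1 and Bglap had at most 4 in any. Col1a1, the main bone collagen and also a gene of fibrous tissue, averaged 250.4 ± 61.0 CPM in Apert and 140.1 ± 67.0 CPM in WT (log2 fold change 0.84, adjusted p = 0.165; SD, n = 3 each).

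Markers of perichondrium and cartilage are given beside Prrx1. The 16 perichondrium and fibrous tissue markers summed to 4561 to 5474 CPM in Apert and 3815 to 4258 CPM in WT, without overlap (exact permutation p = 0.1). Of these, 14 were tested and 2 were called, both higher in Apert, where 0.398% of all genes tested were called higher. Positive log2 fold changes were found for 11 (median 0.55), against 51.1% of all genes tested (median 0.01). The negative ones were Col14a1 (-0.31), Dcn (-0.22) and Col5a1 (-0.11). Col3a1 rose to 452 ± 15.6 CPM in Apert, against 279 ± 35.2 CPM in WT (adjusted p = 0.0322), and Ogn, a small proteoglycan, to 165 ± 31.2 CPM in Apert, against 86.6 ± 21.8 CPM in WT (adjusted p = 0.0363; SD, n = 3 each). Of the listed markers, Dpt was at 0 in all libraries and Twist2 at 5 counts or fewer. The sum was 4720, 4561 and 5474 CPM in Apert replicates 1 to 3, beside Prrx1 at 355, 331 and 260.4 CPM. The part of this tissue in the Prrx1 values was not tested. Of the cartilage markers 15 of 16 were tested and none was called, with 4 positive and 11 negative log2 fold changes (median -0.21). Sox9, the chondrocyte regulator, was at 479 ± 140.1 CPM in Apert and 759.8 ± 109 CPM in WT (adjusted p = 0.125), and the sum of the list overlapped between genotypes, 39554 to 42948 CPM in Apert and 38412 to 49468 CPM in WT. Matn3, a cartilage matrix gene, was at 192 ± 39.8 CPM in Apert and 106 ± 49.8 CPM in WT (adjusted p = 0.197; SD, n = 3 each).

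Markers of other cell types ranged from scarce to abundant. The 12 epithelial markers summed to 0.992 to 3.40 CPM in Apert and 1.30 to 1.93 CPM in WT, with none tested and Cdh1, Krt14 and Krt15 at 0. Of 13 neuronal markers 4 were tested and none was called (Gap43 0.60 and Ncam1 0.24 as log2 fold changes), their sum was 236 to 269 CPM in Apert and 194 to 235 CPM in WT, apart by little and mostly Ncam1, and Neurod1 was at 0. The 11 glial markers summed to 284 to 337 CPM in Apert and 378 to 447 CPM in WT, with 9 tested, all negative and none called (Sox10 -0.61 and Erbb3 -0.35), and Foxd3 and Mal at 0. Endothelial (Eng 0.50, Sox18 -1.64), macrophage (Cd68 0.88, Csf1r 0.17), muscle (Neb 0.51, Ttn -0.22) and erythroid (Hba-x -0.82, Hbb-bs 0.47) markers had no gene called. The sums of these 4 lists overlapped between genotypes. They were 27.3 to 32.7 CPM in Apert and 19.0 to 34.4 CPM in WT for endothelium, and 5.46 to 19.0 CPM in Apert and 6.76 to 11.7 CPM in WT for macrophages. They were 33.9 to 39.9 CPM in Apert and 22.0 to 34.1 CPM in WT for muscle (5 of 12 markers at 0), and 59.9 to 76.2 CPM in Apert and 53.4 to 95.1 CPM in WT for erythroid cells. Their part in the member values was not tested.

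**Figure D4:**
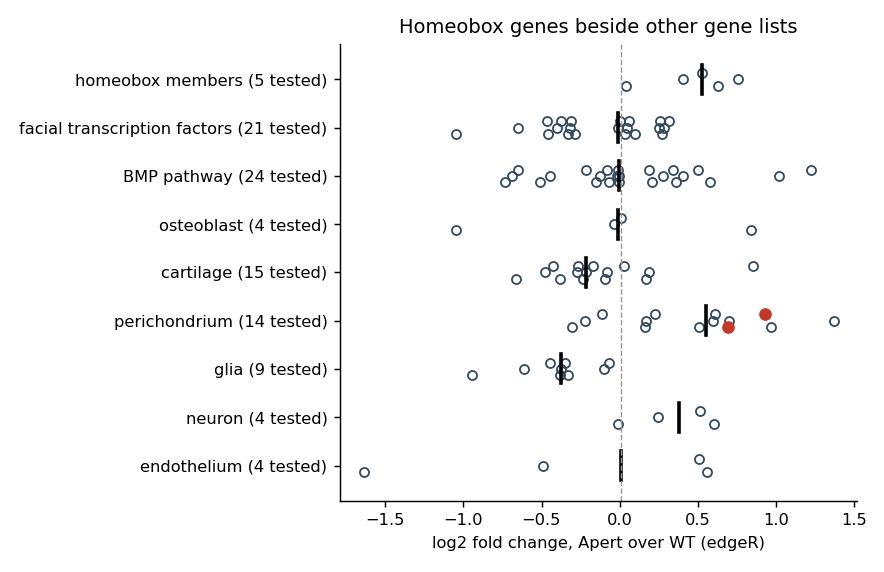
Log2 fold change of Apert over WT for every tested gene (circles) of the homeobox members and of other lists, with called genes filled red, list medians as black bars and the median of all genes tested as a dashed line. The 5 tested members lie at or above the dashed line, without a call, and the 2 called genes are Col3a1 and Ogn among the perichondrium markers.

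The genes whose course over the 6 libraries was most like that of each member were found by the root mean square difference of centred log2 CPM, among 7401 other genes with a mean of at least 10 CPM. Prrx1 was nearest to Lmbrd2 (0.07, where the spread of Prrx1 itself was 0.29) and Prps1 (0.07), and Alx1 to Foxn2 (0.06, own spread 0.31) and Cdc14b (0.06). Alx4 was nearest to Heatr5a (0.03, own spread 0.09) and Sntb2 (0.05), Msx1 to Cdca8 (0.09, own spread 0.43) and Tfrc (0.11), and Prrx2 to Plk1 (0.21, own spread 0.58) and Zfp709 (0.28). None of these 10 genes was called. Among the members Prrx1 and Alx1 differed least (0.16), then Prrx1 and Msx1 (0.24), and Prrx2 differed most from the others (0.40 to 0.61). The measure grows with a gene's own spread, which was largest in Prrx2 (0.58), a gene of few counts. Its distances therefore do not show a different course.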

How the data were processed

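The authors deposited 1 file of whole-number fragment counts per library, made with featureCounts 1.4.4 over exons summed per gene, without strand, on Ensembl release 75 models of GRCm38, per the file headers. Per the submitters' processing notes, reads passed through cutadapt and STAR 2.5.2b with mm10, and settings are not given in the sources used here. Of 38924 identifiers 37607 matched a symbol. The authors' deposited count totals are 6760510 to 10834744 per library, and amplification from 15 ng without molecular identifiers means that limits cover counting error only.

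Tests used edgeR 4.0.16 (R 4.3.3). The low-count filter filterByExpr left 13333 genes, TMM factors scaled the libraries, and genotype was tested by glmQLFit and glmQLFTest with Benjamini-Hochberg adjustment. Standard errors are the log2 fold change over the square root of F, and intervals are 95%. CPM uses the total of all genes times the TMM factor, and TPM uses the exon length deposited by the authors (the other number in the count files). The procedure was tested on simulated data. Replicates of a genotype differed by more than counting noise (chi-square per degree of freedom 11.4 to 23.0). The design text describes separate mice. Alternatives used DESeq2 1.42.0, limma-voom 3.58.1 and a GC correction with mgcv 1.9.3 (13192 of 13333 genes had a GC value).

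Members, lists, tests and alternatives were chosen with earlier results of these data known. Named by rule were the members, their paralogs, the called genes and the 2 of smallest p in each list, and the 2 nearest patterns per member. A few items that this rule names are not reported here. Dpt, Twist2, Alpl, Sp7, Spp1, Bglap and the genes of the last section were named after their values were seen.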

Additional observations from a re-analysis of the deposited data

How the results depend on the processing

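The count of called genes was 60 and changed by over 1.5 times with no expression filter (247), with DESeq2 (223), with the replicate number as a block (172) and after GC correction (5; 78 with GC correction and replicate block), and it ran from 0 to 229 with each library left out. Leaving out Apert replicate 1, 2 or 3 gave 229, 2 or 11 calls and leaving out WT replicate 1, 2 or 3 gave 15, 23 or 0. In that last edgeR fit 1376 genes had an unadjusted p below 0.05. The cause was not tested.

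Of the 5 tested members, Alx1, Prrx1, Prrx2 and Msx1 kept a positive log2 fold change under all 17 alternatives each, from 0.23 to 0.59, 0.38 to 0.64, 0.21 to 1.08 and 0.60 to 1.06. No member was called, except Prrx1 by DESeq2 (0.52, adjusted p = 0.0278), which gave no adjusted p for Prrx2 and Msx1. With the replicate block the adjusted p of Prrx1 was 0.0674 (log2 fold change 0.52). Alx4 reversed with library totals (-0.11), and was -0.010 without Apert replicate 2 and -0.030 without WT replicate 1, in a range of -0.030 to 0.11 with each library left out. The Prrx1 to Prrx2 difference (-0.07) reversed with a pseudocount of 2 CPM (0.13) and ran from -0.34 to 0.34 with each library left out, where the Dlx5 to Dlx6 difference (-0.13) ran from -0.81 to 0.43. The cause was not tested. With each library left out, the Alx1 to Alx4 difference ran from 0.19 to 0.54 and the Msx1 to Msx2 difference from 0.54 to 0.73.

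Msx2, Dlx5 and Dlx6 did not pass the filter of the main fit, so other tools, the block and GC correction gave no value for them. Their log2 fold changes were taken only from the fit with no expression filter (for Msx2 0.12, standard error 1.54). Deviations of same-numbered Apert and WT libraries correlated at 0.21, 0.02 and 0.09, and not every library correlated best with its own number, so the numbers were not taken as pairing. For the low members counting error alone was 14.7% to 20.1% of the mean for Msx1 and Prrx2 and at least 34.0% for Msx2, Dlx5 and Dlx6, and the spread between libraries was often larger, at 39.8% in Apert and 51.7% in WT for Prrx2.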

Other observations

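Other regional regulators give the setting of these members. Frontonasal and crest factors ranged from abundant to undetected in CPM, which is not corrected for gene length. Tfap2b averaged 267 ± 56.7 CPM in Apert and 266 ± 30.3 CPM in WT. Six2 averaged 186 ± 77.3 CPM in Apert and 257 ± 35.5 CPM in WT, and Eya1 211 ± 18.9 CPM in Apert and 169.6 ± 8.18 CPM in WT. Pax3 averaged 25.1 ± 2.91 CPM in Apert and 21.0 ± 2.14 CPM in WT. Twist1 averaged 3.44 ± 0.983 CPM in Apert and 3.47 ± 2.33 CPM in WT (SD, n = 3 each). Pax7 and Zic1 had 0 counts in all 6 libraries. Hand2 and Hand1, which pattern the lower jaw with Dlx5 and Dlx6, had 0 counts in all 6 libraries, as did Lhx6 and Lhx8, factors of oral jaw mesenchyme. Barx1 had at most 2 counts and Gsc at most 2 in any library. Of 15 Hox genes listed, which mark segments behind the face, 14 were matched, 11 had 0 counts in all libraries and none had more than 1 in any. Runx2, the regulator that precedes osteoblast genes and also acts in cartilage, averaged 85.3 ± 10.9 CPM in Apert and 84.7 ± 1.70 CPM in WT (SD, n = 3 each; log2 fold change 0.01, edgeR adjusted p = 0.992). These genes were chosen after their values were seen.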
